A study of Mus musculus with 18 samples.

Results

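The genes described here make the enzymes, transporters and regulators that take glucose into astrocytes, break it down to pyruvate, turn pyruvate into lactate or pass it to mitochondria, and store glucose as glycogen. The 34 genes were chosen by symbol for these roles and were found by their Entrez IDs among the 26301 genes of the deposited count table. All 34 were among the 16539 genes that passed the filter on low counts and were tested. RNA was sequenced from 18 libraries of mouse cells in 6 groups of 3. Cortical astrocytes were dissected from newborn mice and cultured for 2 weeks, in medium with serum until confluent and then in N2 medium, in all 6 groups. They were then kept alone (the control at each time) or given hippocampal neurons of newborn TdTomato+ mice, which fluoresce red. After 2, 4 or 7 days the cells were detached and sorted by that fluorescence, and the control astrocytes set the gate for negative cells. By its title, the study asked which transcripts of astrocytes respond to neuronal contact. The labels give no strain, sex or number of animals and do not say whether replicates came from separate animals, and a p-value here therefore covers only how these cultures varied, which may be technical. The gate removes fluorescent neurons, not other cells without TdTomato that a cortical culture may hold.

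As background, glucose enters astrocytes mainly through the transporter Slc2a1 (GLUT1) and is trapped by hexokinase, after which glycolysis splits it and yields ATP and pyruvate. Lactate dehydrogenase converts pyruvate to lactate and back, and monocarboxylate transporters carry lactate across the membrane. Astrocytes hold most of the glycogen of the brain and are known for releasing lactate, which neurons can take up as fuel.

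Total counts ran from 3242459 to 32623556 reads per library, and 2 libraries stood apart. Replicate 1 of astrocytes alone at day 2 had the fewest reads, a TMM scaling factor of 0.0459, and a read in 66.2% of the tested genes. It held 345 reads on the 34 genes together, and 23 of them had under 10 reads there. Replicate 1 of the co-culture at day 7 had 8966485 reads, a factor of 0.665 and a read in 83.1% of the tested genes. Elsewhere that share ran from 85.4% (replicate 3 with neurons at day 4) to 99.1%, with 88.3% in replicate 2 with neurons at day 2. In the other 16 libraries 0 to 2 of the 34 genes had under 10 reads, and their summed level ran from 2604 to 4406 CPM (TMM-scaled counts of a gene relative to all reads of its library). Counts of 3 reads, taken as the floor, correspond to 20.2 CPM and 0.504 CPM in those 2 libraries and to 0.0743 to 0.179 CPM in the others, for counting error only. Below, values are CPM in the order of replicates 1, 2 and 3, and a pair is the co-culture and the control library of the same replicate number and day. Many but not all results that include the doubtful libraries are also given without them. Fits without them kept the partner library of each and had no replicate term. The groups compared at day 2, at day 7 and on average then hold different replicate numbers. All 10 astrocyte markers had reads in both kinds of culture, with a summed level of 504 to 4503 CPM alone and 1168 to 5314 CPM with neurons. Neuron markers summed to 157 to 436 CPM alone (9 of 10 with reads) and 191 to 371 CPM with neurons (10 of 10), with most of these reads on Stmn2 and Map2 in every library. Among the others, Nefl, a neurofilament gene, had 0 reads in all 9 control libraries and 6 to 62 reads in 5 of the 9 co-culture libraries. Dcx, a gene of young neurons, had 0 to 4 reads alone and 0 to 172 with neurons, with over 40 in 5 libraries. Their part in the results below was not tested. Microglia and macrophage markers (8 of 8 in both) summed to 2.58 to 187 CPM alone and 5.53 to 317 CPM with neurons. Endothelial and mural markers (5 of 7 with reads in both) summed to 2.51 to 60.5 CPM alone and 5.34 to 19.8 CPM with neurons. Without the doubtful libraries the highest sum alone was 12.7 CPM. Cldn5 and Kcnj8 had no read in any library. Fibroblast markers (4 of 4) summed to 24.5 to 116 CPM alone and 26.1 to 179 with neurons. Ependymal markers (3 of 3) summed to 121 to 307 and 105 to 391 CPM. Oligodendrocyte lineage markers (7 of 7) summed to 13.4 to 36.2 and 14.9 to 70.6 CPM. Their part in the results was not tested. Replicate numbers correspond to dates in the labels, and 8 libraries without a read on Ntrk2 (all 6 of replicate 2, replicate 3 alone at day 2 and replicate 3 with neurons at day 7) form a set that returns below.

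Per kb of exon, a scale on which genes can be compared, the lactate and glycogen enzymes Ldhb and Pygb stood among the highest of the 34 genes. Length here joins the exons of all coding transcripts of a gene. For Aldoa this gives 3028 bases, against 1549 in its longest coding transcript, and for Aldoc 2976 against 2786. Levels and shares per length depend on this choice. Over the 16 libraries without the doubtful ones the median was 279 CPM per kb for Ldhb, 139.6 for its neighbour in the pathway Bsg, the chaperone of lactate transporters, 102 for the aldolase Aldoa and 101 for the brain glycogen phosphorylase Pygb. The glucose transporter Slc2a1 was at 10.7 CPM per kb and the main hexokinase Hk1 at 25.4. At the lower end stood the muscle phosphorylase Pygm at 0.225 CPM per kb and the lactate exporter Slc16a3 (MCT4) at 0.134. Gapdh, a very abundant transcript in most cells, was counted at 2.25 CPM per kb, with 0 to 256 reads per library. In the mouse reference transcripts 58.4% of the 50-base words of Gapdh occur in another gene, among them 213 pseudogenes, so its count need not reflect its transcript level. The same share was 68% for Pgk1, 49.5% for Eno1, 41.5% for Pgam1, 26.8% for Mpc1, 25% for Pfkfb2, 24.5% for Gpi1, 23.7% for Pkm and 21% for Ldhb, and how shared reads were assigned is not given in the sources used here.

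**Figure D1:**
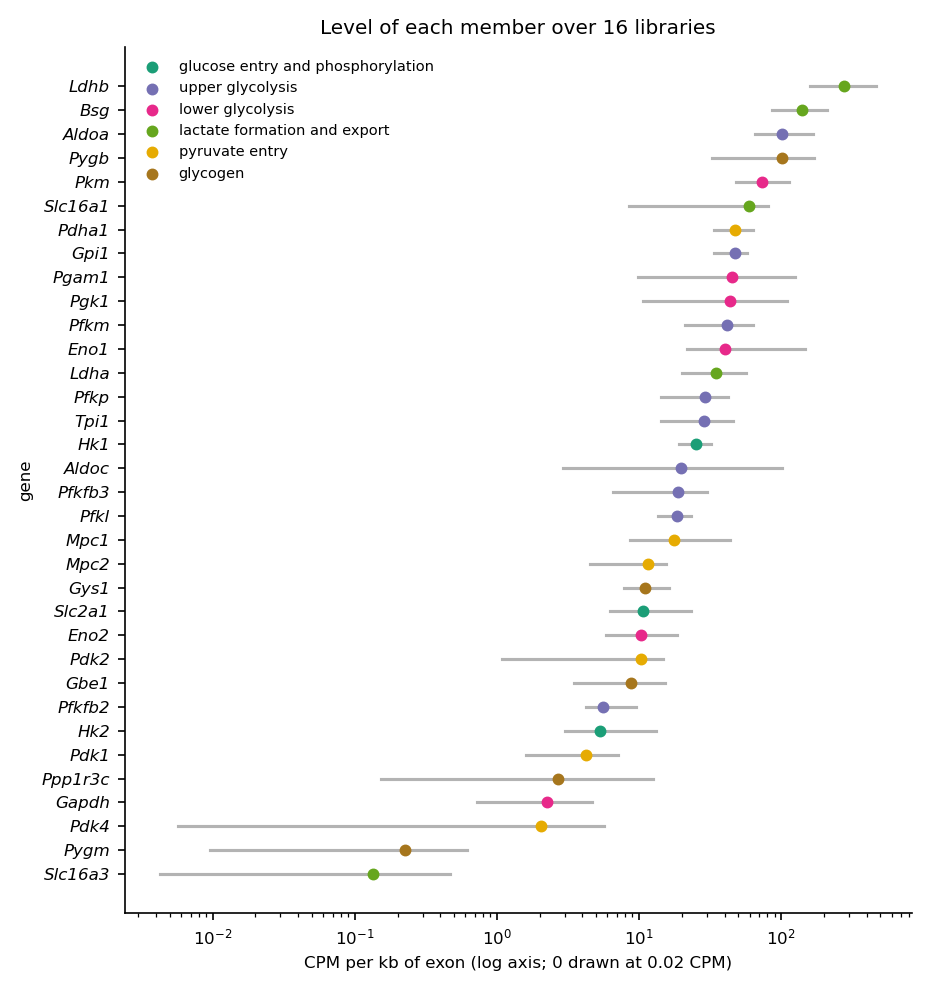
Level of each gene in CPM per kb of exon on a log axis, over the 16 libraries without the 2 doubtful ones (points are medians, coloured by step; bars run from the lowest to the highest library). Ldhb has the highest median, 279 CPM per kb, and Slc16a3 the lowest, 0.134.

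Genes of the same step held unequal shares of their reads per length, and within pairs no share passed a test between co-culture and control. As a share of the 2 lactate dehydrogenase subunits per length, Ldhb, the heart-type subunit, held a median of 89.4% (86.0% to 91.8% over 16 libraries) and Ldha, the muscle-type subunit, the rest. Hk2 held 16.2% of Hk1 and Hk2 together (9.43% to 32.2%), and the muscle phosphofructokinase Pfkm 68.7% of Pfkm and the liver form Pfkl together (56.5% to 78.0%). Slc16a3 held 0.215% of itself and Slc16a1 (MCT1), and Pygm 0.201% of itself and Pygb. Aldoc, the brain aldolase, held between 4.32% and 58.1% of Aldoa and Aldoc, the widest range of the 8 shares examined. Within pairs, the ratios of these partners were compared between co-culture and control by an exact two-sided sign-flip permutation test over the 9 pairs, whose smallest possible p is 0.003906, with Benjamini-Hochberg adjustment over the 8 ratios. The nearest to the threshold was Pfkm to Pfkl, lower in 7 of 9 pairs with a mean log2 difference of −0.33 (SD 0.41, n = 9 pairs, exact p = 0.0469, adjusted p = 0.375). Ldhb to Ldha differed by a mean of 0.08 (SD 1.05, n = 9 pairs, exact p = 0.785, adjusted p = 0.852) and was higher in 5 pairs. None of the 8 ratios passed after adjustment.

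Between co-culture and control, none of the 34 genes was called at day 2, day 4, day 7 or on average over the days by edgeR's quasi-likelihood test (Benjamini-Hochberg adjusted p under 0.05 over all genes tested), and neither was any other gene (0% called in each of the 4 comparisons). DESeq2, which called 22, 0, 5 and 0 genes in these comparisons, called 0 of the 34 as well, and so did limma-voom with quality weights. At an unadjusted p under 0.05 stood 0 of 34 at day 2 (2.35% of all tested genes), 0 at day 4 (0.369%), 3 at day 7 (9.37%: Gpi1, Eno2 and Pygm) and 1 on average (4.17%: Gpi1). By direction alone, the fitted difference was higher with neurons for 19 of 34 at day 2 (53.3% of all tested genes), 24 at day 4 (48.6%), 22 at day 7 (50.2%) and 24 on average (52.6%). The median log2 difference of the 34 genes was 0.07, 0.21, 0.19 and 0.18 in these comparisons, against 0.04, −0.01, 0.00 and 0.02 over all tested genes. These medians depend on the scaling, and with upper-quartile scaling that of all genes was −0.07, −0.07, −0.15 and −0.09, and that of the 34 genes −0.04, 0.14, −0.02 and 0.06. In such bulk samples, fewer cells of a type and less RNA per cell cannot be told apart.

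**Figure D2:**
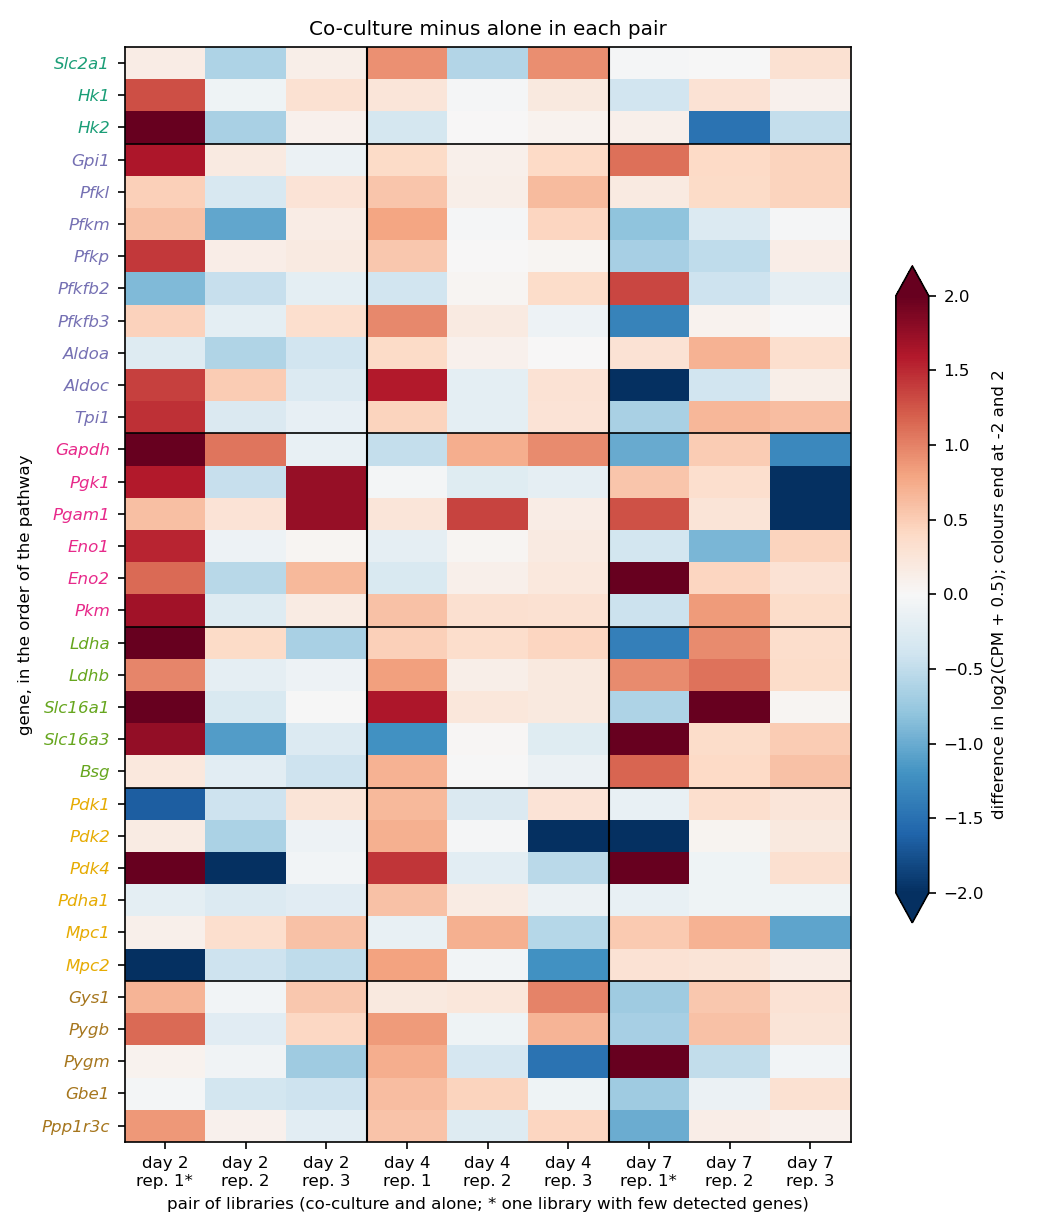
Difference in log2(CPM + 0.5), co-culture minus control, for each gene (rows, in pathway order, coloured and boxed by step) in each of the 9 pairs (columns; colours end at −2 and 2; asterisks mark the pairs that hold a doubtful library). At day 4 the 3 columns hold 26, 20 and 23 of 34 genes above 0.

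At day 4 the 3 pairs hold neither of the 2 doubtful libraries nor libraries of different sets. Replicate 3 with neurons, however, had a read in only 85.4% of the tested genes, against 98.0% to 98.9% in the other day 4 libraries. Higher with neurons in 3 of 3 pairs were 10 of 34 genes (10.7% of all tested genes): Gpi1, Pfkl, Pfkp and Aldoa of upper glycolysis, Pgam1 and Pkm of lower glycolysis, Ldha, Ldhb and Slc16a1 of lactate formation and export, and Gys1, the glycogen synthase. Lower in 3 of 3 pairs was 1 gene, Pgk1 (14.8%). With median-ratio scaling 9 were higher (9.09% of all tested genes), and with upper-quartile scaling 8 (8.17%). In pairs 1, 2 and 3 of day 4, 26, 20 and 23 of 34 genes were higher, with medians of 0.56, 0.03 and 0.19 against 0.03, −0.02 and −0.13 over all tested genes. The genes were thus higher by the most in the pair of replicate 1 and by little in that of replicate 2. Astrocyte markers summed to 905, 2365 and 4503 CPM alone and 1680, 2331 and 5314 CPM with neurons at day 4, the largest relative gap also in replicate 1, and their part in the result was not tested. Neuron markers summed to 436, 194 and 235 CPM alone and 368, 207 and 281 CPM with neurons at that time. Nefl had 0 reads in the 3 controls and 6, 56 and 18 reads with neurons, and Dcx had 0, 4 and 0 reads alone and 93, 2 and 0 with neurons.

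**Figure D3:**
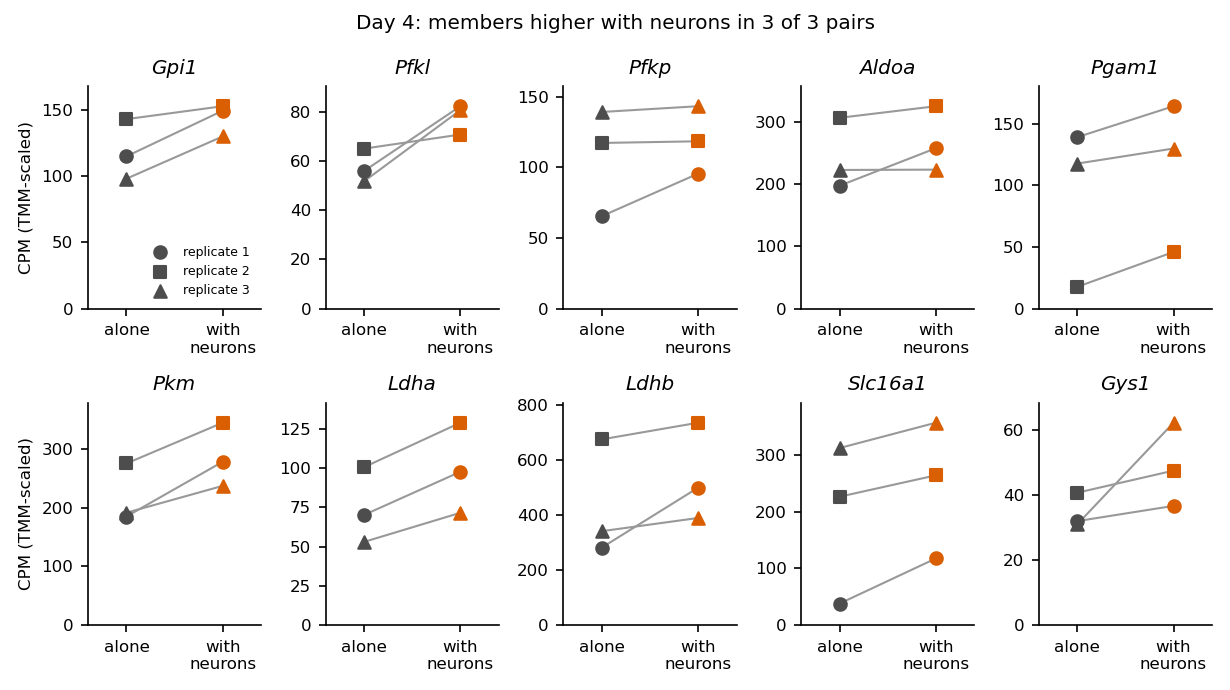
CPM (TMM-scaled, axes from 0) at day 4 of the 10 genes that were higher with neurons in 3 of 3 pairs; lines join the libraries of a pair, and symbols mark the replicate number. The 2 groups of Pfkl do not overlap (51.8 to 65.1 CPM alone, 70.9 to 82.4 with neurons), while those of the other 9 genes do.

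At day 2, 3 of 34 genes were higher in 3 of 3 pairs (15.2% of all tested genes: Pfkp, Pgam1 and Mpc1) and 5 lower (8.48%: Pfkfb2, Aldoa, Pdha1, Mpc2 and Gbe1). The pair of replicate 1 holds the doubtful control, in which Gbe1 was at the floor of 20.2 CPM and Mpc2 near it. At day 7, 8 were higher (14%: Gpi1, Pfkl, Aldoa, Eno2, Ldhb, Slc16a3, Bsg and Mpc2) and 2 lower (15.8%: Pfkm and Pdha1). With median-ratio scaling 9 were higher at day 7 (13%), as many as at day 4 with that scaling, and with upper-quartile scaling 5 (9.25%). Over all days, 3 genes were higher in at least 8 of 9 pairs (3.45% of all tested genes): the isomerase Gpi1, Pfkl and Pgam1. Without the 2 pairs that hold a doubtful library, 7 were higher in at least 6 of 7 pairs (7.64%), the same 3 with Ldha, Pfkp, Gys1 and Pkm, and 1 was lower, Pygm (8.5%). In the 5 pairs that also lie within a single library set, Gpi1, Pgam1 and Ldha were higher in 5 of 5. None was lower in at least 8 of 9 pairs (2.73% of all tested genes). The co-culture group lay wholly below the control for 1 gene at day 2 (Mpc2, 2.27% of all tested genes), 0 at day 4 (3.92%) and 0 at day 7 (5.58%). It lay wholly above for 0 at day 2 (3.26%), 1 at day 4 (Pfkl, 2.05%) and 4 at day 7 (Gpi1, Pfkl, Ldhb and Bsg, 4.29%). At day 7 the microglia and macrophage markers summed to 2.79, 187 and 6.88 CPM alone and 84.4, 317 and 5.53 CPM with neurons, with 8 of 8 fitted higher (median 2.30), and their part in these counts was not tested.

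Glucose entry showed no common direction. Slc2a1, the glucose transporter, stood at day 2 at 26.9, 33.7 and 36.9 CPM alone and 29.7, 21.8 and 40.1 CPM with neurons. Its 26.9 CPM lie near the floor of 20.2 CPM of the doubtful control. At day 4 Slc2a1 was at 32.4, 38.4 and 42.7 CPM alone against 61.6, 25.4 and 81.4 CPM with neurons. At day 7 Slc2a1 was at 60.2, 34.5 and 48.8 CPM alone against 59.2, 34.2 and 60.3 CPM with neurons. It was thus higher with neurons in replicates 1 and 3 at day 4 and lower in replicate 2, the groups overlapped at each time, and the day 4 log2 difference was 0.57 (SE 0.39, edgeR adjusted p = 1). Hk1, the hexokinase of brain that primes glucose for glycolysis, was at day 2 at 80.7, 188 and 161 CPM alone and 198, 177 and 199 CPM with neurons. At day 4 Hk1 was at 119, 156 and 148 CPM alone and 141, 153 and 170.4 CPM with neurons. At day 7 Hk1 was at 126, 126 and 169 CPM alone and 96.8, 153 and 180.3 CPM with neurons. Its lowest values came from the 2 doubtful libraries, and in the other 16 it ran from 119 to 199 CPM. Hk2, the inducible hexokinase, ran from 17.9 to 78.2 CPM over the 16 libraries and was higher with neurons in 5 of 9 pairs.

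Upper glycolysis, from glucose 6-phosphate to the trioses, had 9 of 9 members fitted higher with neurons at day 4 (median log2 difference 0.24), also without the 2 doubtful libraries, and 8 of 9 with median-ratio or upper-quartile scaling. At day 2 there were 5 of 9 (2 with upper-quartile scaling or without the doubtful libraries) and at day 7 5 of 9 (8 without the doubtful libraries). Gpi1, which turns glucose 6-phosphate into fructose 6-phosphate, stood at day 2 at 53.8, 141 and 133 CPM alone and 165, 159 and 123 CPM with neurons. At day 4 Gpi1 was at 115, 143 and 97.9 CPM alone and 149, 152 and 129.7 CPM with neurons. At day 7 Gpi1 was at 108, 117 and 119 CPM alone and 232, 154 and 163 CPM with neurons. The day 7 groups were apart, with the highest value in the doubtful library, and only replicate 3 at day 2 went the other way among the 9 pairs. The average log2 difference of Gpi1 was 0.44 (SE 0.18, edgeR unadjusted p = 0.0231, adjusted p = 0.982), and 0.27 (SE 0.13, adjusted p = 1) without the 2 doubtful libraries, with an adjusted p of 0.554 to 1 over its 35 alternatives. Pfkl, the liver-type subunit of phosphofructokinase, the main control point of glycolysis, was at day 2 at 53.8, 87.9 and 57.9 CPM alone and 75.2, 70.1 and 70.2 CPM with neurons. At day 4 Pfkl was at 56.1, 65.1 and 51.8 CPM alone and 82.4, 70.9 and 80.8 CPM with neurons. At day 7 Pfkl was at 62.7, 58.8 and 59.9 CPM alone and 71.3, 77.0 and 81.5 CPM with neurons. Every co-culture library was above every control library at day 4 and again at day 7, and replicate 2 at day 2 was the exception among the 9 pairs. Its log2 difference was 0.44 (SE 0.25) at day 4 and 0.34 (SE 0.25) at day 7, with edgeR adjusted p of 1 and 0.729. Aldoa, the aldolase of most tissues, was at day 2 at 397, 506 and 312 CPM alone and 333, 334 and 238 CPM with neurons. At day 4 Aldoa was at 197, 306 and 222 CPM alone and 257, 325 and 223 CPM with neurons. At day 7 Aldoa was at 198, 248 and 329.6 CPM alone and 241, 400.3 and 417 CPM with neurons. It was lower with neurons in 3 of 3 pairs at day 2 and higher in 3 of 3 at day 4 and at day 7. Pfkfb2, which sets the level of the phosphofructokinase activator fructose bisphosphate, was at day 2 at 40.3, 29.5 and 39.4 CPM alone and 21.7, 21.3 and 34.4 CPM with neurons. At day 4 Pfkfb2 was at 39.9, 26.3 and 36.8 CPM alone and 30.4, 27.0 and 47.6 CPM with neurons. At day 7 Pfkfb2 was at 26.4, 31.0 and 26.4 CPM alone and 67.1, 23.3 and 23.3 CPM with neurons. Its highest value was in the doubtful co-culture library, and the other 2 pairs of day 7 went the opposite way. Among the rest, Pfkp, the platelet-type phosphofructokinase, was higher with neurons in 7 of 9 pairs, Pfkfb3, the other activator enzyme, in 6, Tpi1, the triose isomerase, and Aldoc in 5 each, and Pfkm in 4.

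Lower glycolysis, from the trioses to pyruvate, had 6 of 6 members fitted higher with neurons at day 2 and on average, with medians of 0.78 and 0.35, but 3 of 6 at day 4 and at day 7. Without the 2 doubtful libraries these counts were 5, 5, 3 and 1, and the average median was 0.08. Pkm, the pyruvate kinase that makes pyruvate, stood at day 2 at 114, 436 and 284 CPM alone and 366, 364 and 319.9 CPM with neurons. At day 4 Pkm was at 185, 276 and 192 CPM alone and 279, 345 and 238 CPM with neurons. At day 7 Pkm was at 234, 185 and 239 CPM alone and 173, 334 and 309 CPM with neurons. It was higher with neurons in 6 of the 7 pairs without a doubtful library, with an average log2 difference of 0.34 (SE 0.22, edgeR adjusted p = 0.982). Eno2, the enolase typical of neurons, was at day 2 at 26.9, 49.4 and 19.7 CPM alone and 59.3, 33.3 and 31.2 CPM with neurons. Here too the 26.9 CPM lie near the floor of 20.2 CPM of the doubtful control. At day 4 Eno2 was at 61.9, 41.3 and 24.5 CPM alone and 49.9, 44.2 and 28.3 CPM with neurons. At day 7 Eno2 was at 51.1, 23.3 and 29.5 CPM alone and 224, 31.7 and 36.2 CPM with neurons. The value of 224 CPM came from the doubtful library. Without the 2 doubtful libraries the day 7 log2 difference of Eno2 went from 1.48 (SE 0.62, edgeR unadjusted p = 0.0272, adjusted p = 0.478) to −0.07 (SE 0.47, adjusted p = 1). That fit keeps the replicate 1 control at 51.1 CPM without its partner, while the pairs of replicates 2 and 3 were both higher with neurons. Eno1, the enolase of most cells, was at day 2 at 148, 145 and 120.1 CPM alone and 426, 136 and 123 CPM with neurons. At day 4 Eno1 was at 317, 106 and 63.4 CPM alone and 278, 109 and 72.1 CPM with neurons. At day 7 Eno1 was at 114, 149 and 68.2 CPM alone and 88.3, 79.0 and 92.8 CPM with neurons. The 3 highest values, 426, 317 and 278 CPM, were all of replicate 1. Pgk1, the phosphoglycerate kinase that makes the first ATP, was at day 2 at 67.2, 27.2 and 49.8 CPM alone and 202, 19.6 and 168 CPM with neurons. At day 4 Pgk1 was at 165, 32.9 and 126 CPM alone and 161, 27.7 and 111 CPM with neurons. At day 7 Pgk1 was at 114, 23.2 and 161 CPM alone and 168, 29.2 and 36.0 CPM with neurons. Its low values, 19.6 to 49.8 CPM, were those of the 8 libraries of the set without Ntrk2 reads, and the other 10 were at 67.2 CPM or above. Pgam1, the phosphoglycerate mutase, ran from 17.6 to 45.9 CPM in the set and from 116 to 281 CPM outside it.

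The set and the coding sequences of Pgk1 and Pgam1 were therefore looked at more closely. Each has a copy without introns that is identical over the aligned coding bases, 1250 for Pgk1-rs7 on chromosome 12 and 762 for Pgam1-ps2 on chromosome 7, with 0 differences (100% identity, GENCODE transcripts of GRCm38). In GRCm38, Pgk1 lies at chrX:106187100-106203699 (plus strand), Pgk1-rs7 at chr12:10898986-10900240 (minus), Pgam1 at chr19:41911923-41918660 (plus) and Pgam1-ps2 at chr7:27469771-27470535 (minus). Shown are coding bases 32 to 91 of each gene, counted from the A of the start codon, beside the same stretch of its copy, since a read from it cannot be told apart between gene and copy by its letters; capitals would mark differences and there are none.
Pgk1: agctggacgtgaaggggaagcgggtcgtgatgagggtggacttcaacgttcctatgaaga
Pgk1-rs7: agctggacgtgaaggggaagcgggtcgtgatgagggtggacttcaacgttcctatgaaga
Pgam1: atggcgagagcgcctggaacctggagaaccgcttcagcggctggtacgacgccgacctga
Pgam1-ps2: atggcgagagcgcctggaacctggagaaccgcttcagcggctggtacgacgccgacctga
With replicate number and group in the model, libraries of the set differed from the others by a log2 value of −1.97 for Pgam1 (SE 0.44, edgeR unadjusted p = 0.000277, adjusted p = 0.0995) and −1.61 for Pgk1 (SE 0.47, adjusted p = 0.607), and none of the 34 genes was called (0.242% of all tested genes called lower, 0% higher). Without the doubtful libraries the difference was −1.84 for Pgam1 (edgeR adjusted p = 0.215) and −1.90 for Pgk1 (adjusted p = 0.175), again with no call (0.139% lower, 0% higher). Within replicate 3, Pgk1 was at 49.8 and 36.0 CPM in the 2 libraries of the set and at 111, 126, 161 and 168 CPM in the 4 others. Eno1b, a further gene with enolase sequence that is not one of the 34, was called, at −3.55 (SE 0.54, edgeR adjusted p = 0.00287). It had 278 to 1015 reads in the set and 82 to 49266 reads outside it. Every library outside the set had more reads on Eno1b than on Eno1 (49266 against 15402 in replicate 1 with neurons at day 2). Every library of the set had fewer. Levels of Eno1 and the ratio of Eno2 to Eno1 may therefore miss enolase reads. Because the pairs of replicate 3 at day 2 and at day 7 join libraries of different sets, their log2 differences (Pgk1 and Pgam1 both 1.75 at day 2, Pgk1 −2.14 and Pgam1 −2.01 at day 7) lie along the set, and the part of the set in them cannot be told apart from that of the co-culture.

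**Figure D4:**
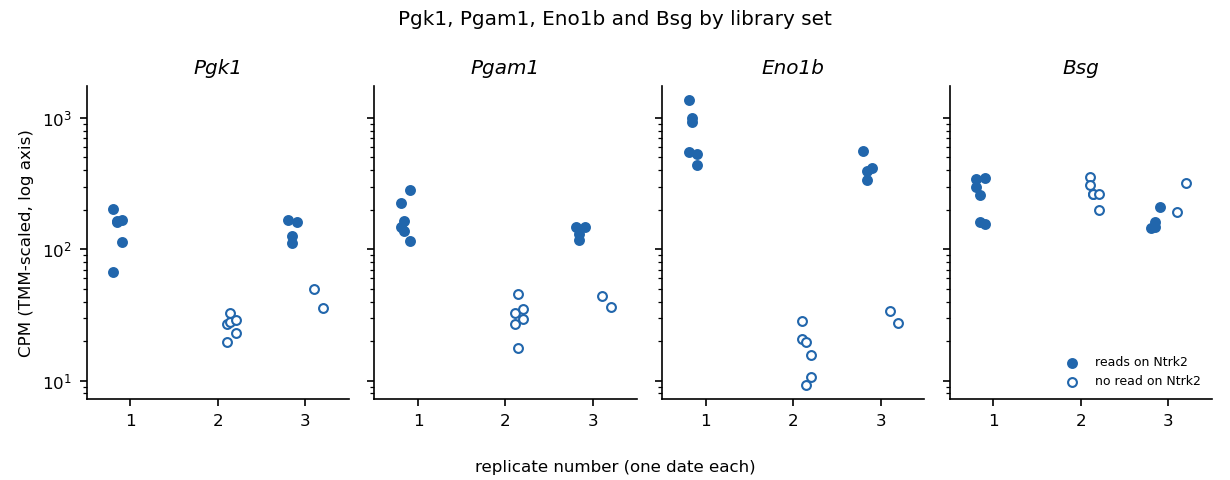
CPM (TMM-scaled, log axis) of Pgk1, Pgam1, Eno1b and, for comparison, Bsg in all 18 libraries, by replicate number; open circles are the 8 libraries without a read on Ntrk2 and filled circles the 10 others. Open circles lie below every filled circle for the first 3 genes (at most 49.8 CPM for Pgk1 against at least 67.2), and not for Bsg.

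Lactate formation and export had 5 of 5 members fitted higher with neurons at day 7 (median log2 difference 0.72) and on average (0.33), 4 of 5 at day 4 (0.32) and 3 of 5 at day 2 (0.13). Day 7 kept 5 of 5 with both other scalings and without the 2 doubtful libraries (0.57), while day 2 had 2 of 5 with upper-quartile scaling and without those libraries. Of the day 7 pairs, that of replicate 1 holds a doubtful library and that of replicate 3 joins libraries of different sets. The part of the set in the day 7 count was not tested. Ldha stood at day 2 at 20.2, 109 and 108 CPM alone and 139.8, 143 and 68.8 CPM with neurons. Its 20.2 CPM are the floor of the doubtful control (3 reads). At day 4 Ldha was at 70.2, 101 and 53.0 CPM alone and 97.7, 129 and 71.5 CPM with neurons. At day 7 Ldha was at 60.8, 77.1 and 66.8 CPM alone and 23.2, 149 and 85.8 CPM with neurons, the 23.2 CPM being those of the other doubtful library. The pairs of day 4 differed by 0.47, 0.36 and 0.43 on the log2 scale, the narrowest range among the 10 genes higher in 3 of 3 pairs at that time, while the groups overlapped. Without the 2 doubtful libraries the average log2 difference of Ldha was 0.42 (SE 0.21, edgeR adjusted p = 1), against 0.40 (SE 0.31, adjusted p = 0.982) with them. Ldhb was at day 2 at 262, 671 and 441 CPM alone and 515, 594 and 409.9 CPM with neurons. At day 4 Ldhb was at 281, 674 and 340.5 CPM alone and 498, 734 and 388 CPM with neurons. At day 7 Ldhb was at 249, 301 and 336 CPM alone and 479, 637 and 433 CPM with neurons. The day 7 groups were apart, with a log2 difference of 0.81 (SE 0.39, edgeR adjusted p = 0.539) that was also 0.81 (SE 0.39, adjusted p = 1) without the doubtful libraries. Bsg, which brings the lactate transporters to the membrane, was at day 2 at 296, 354 and 192 CPM alone and 342, 306 and 145 CPM with neurons. At day 4 Bsg was at 160.1, 265 and 160.4 CPM alone and 259, 263 and 148 CPM with neurons. At day 7 Bsg was at 156, 200.1 and 211 CPM alone and 351, 263 and 317 CPM with neurons. Its groups were apart at day 7, at 0.72 (SE 0.36, edgeR adjusted p = 0.549) and at 0.56 (SE 0.40, adjusted p = 1) without the doubtful library, and mixed before. Slc16a1, the transporter MCT1, was at day 4 at 37.9, 227 and 312 CPM alone and 117, 264 and 357 CPM with neurons. Its control values spread more widely over the dates than the co-culture differed from them, and it was higher in 6 of 9 pairs. Slc16a3, the exporter MCT4, was at day 2 at 0, 0.589 and 0.150 CPM alone and 1.19, 0 and 0.0397 CPM with neurons. At day 4 Slc16a3 was at 2.20, 1.13 and 0.0917 CPM alone and 0.662, 1.17 and 0 CPM with neurons. At day 7 Slc16a3 was at 0.813, 1.28 and 0.155 CPM alone and 5.04, 1.81 and 0.431 CPM with neurons. These values rest on 0 to 73 reads per library, and several were at or under the floor of their library.

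The promoters of the 34 genes were searched for ACGTG on either strand, a core of hypoxia response elements that also lies in the E-box CACGTG. In that E-box both strands match and count as 2. No other form was searched. RefSeq windows (GRCm38.p6, 250 bases before to 50 after a start) were found for 33 of the 34 genes, and 23 of their 50 windows held a match, against 19.6% of all 32851 windows. At day 4 the median log2 difference was 0.28 for the 19 genes with a match in at least 1 window and 0.17 for the 14 without. This gap was not tested, and genes with several windows had more chances of a match. The 250 bases before the start are shown for the lactate genes Ldha (chr7:46845554-46845803, plus strand) and Slc16a1 (chr3:104638414-104638663, plus strand) and for Ppp1r3c (chr19:36736605-36736854, minus strand), which directs a phosphatase to glycogen and differed most between dates below, each among the genes with the most matches (capitals mark ACGTG or its reverse complement, 5, 2 and 3 matches).
Ldha: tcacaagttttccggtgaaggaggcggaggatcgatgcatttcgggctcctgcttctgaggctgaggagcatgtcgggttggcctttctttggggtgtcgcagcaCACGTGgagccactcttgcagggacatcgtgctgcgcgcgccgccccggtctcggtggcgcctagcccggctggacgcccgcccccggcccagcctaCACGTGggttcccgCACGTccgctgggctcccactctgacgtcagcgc
Slc16a1: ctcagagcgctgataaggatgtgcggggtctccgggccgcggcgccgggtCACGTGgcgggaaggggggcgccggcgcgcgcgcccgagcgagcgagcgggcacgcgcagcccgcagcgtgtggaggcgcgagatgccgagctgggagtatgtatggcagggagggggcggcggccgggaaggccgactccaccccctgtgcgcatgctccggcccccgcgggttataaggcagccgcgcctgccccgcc
Ppp1r3c: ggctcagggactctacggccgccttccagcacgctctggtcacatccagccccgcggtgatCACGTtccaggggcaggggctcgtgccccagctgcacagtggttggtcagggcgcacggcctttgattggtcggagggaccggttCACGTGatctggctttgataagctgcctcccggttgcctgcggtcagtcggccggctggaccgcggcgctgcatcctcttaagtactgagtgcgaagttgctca
A match describes letters in the window and not a bound factor.

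Pyruvate entry, the step from pyruvate into mitochondria and acetyl-CoA, had 1 of 6 members fitted higher at day 2 (median −0.33), 2 at day 4 (−0.05), 3 at day 7 (0.05) and 2 on average (−0.03). The day 7 count was 2 with upper-quartile scaling and 5 without the 2 doubtful libraries. Mpc1, a subunit of the mitochondrial pyruvate carrier, stood at day 2 at 33.6, 13.8 and 19.6 CPM alone and 36.2, 17.5 and 29.6 CPM with neurons. At day 4 Mpc1 was at 29.3, 14.6 and 49.1 CPM alone and 26.5, 24.4 and 33.1 CPM with neurons. At day 7 Mpc1 was at 50.7, 15.8 and 69.7 CPM alone and 73.0, 25.9 and 33.5 CPM with neurons. Replicate 2 alone was the lowest of its group at each day. Mpc2, the partner subunit, was at day 2 at 33.6, 12.8 and 15.8 CPM alone and 7.59, 9.49 and 10.985 CPM with neurons. At day 4 Mpc2 was at 8.06, 12.3 and 11.4 CPM alone and 14.5, 11.9 and 4.65 CPM with neurons. At day 7 Mpc2 was at 12.8, 10.6 and 11.8 CPM alone and 15.8, 12.7 and 13.2 CPM with neurons. The day 2 groups were apart, at −0.95 (SE 0.51, edgeR unadjusted p = 0.0761, adjusted p = 1) and at −0.62 (SE 0.42, adjusted p = 1) without the doubtful control, whose 33.6 CPM are near its floor of 20.2 CPM. Pdk4, a kinase that switches off pyruvate dehydrogenase, was at day 2 at 0, 4.91 and 11.3 CPM alone and 1.58, 0 and 10.8 CPM with neurons. At day 4 Pdk4 was at 2.29, 5.92 and 15.9 CPM alone and 7.03, 5.07 and 10.7 CPM with neurons. At day 7 Pdk4 was at 4.82, 7.59 and 15.9 CPM alone and 135, 7.13 and 19.9 CPM with neurons. The doubtful library held the outlying 135 CPM (801 reads), and the day 7 log2 difference went from 2.51 (SE 1.23, edgeR adjusted p = 0.54) to 0.44 (SE 1.21, adjusted p = 1) without the 2 doubtful libraries. Pdha1, the catalytic alpha subunit of pyruvate dehydrogenase, was lower with neurons in 7 of 9 pairs and ran from 95.5 to 179.7 CPM over the 16 libraries. The kinases Pdk1 and Pdk2 were higher in 5 and 4 of 9 pairs.

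Glycogen genes had 4 of 5 members fitted higher with neurons at day 4 (median 0.29) and at day 7 (0.12), 2 of 5 at day 2 (−0.40) and 3 of 5 on average (0.29). The day 7 count was 2 with upper-quartile scaling, and the average median was −0.02 without the 2 doubtful libraries. Gys1, which builds glycogen in most tissues, stood at day 2 at 33.6, 53.4 and 38.1 CPM alone and 54.4, 51.3 and 55.5 CPM with neurons. At day 4 Gys1 was at 31.9, 40.6 and 30.9 CPM alone and 36.6, 47.4 and 62.1 CPM with neurons. At day 7 Gys1 was at 33.9, 29.9 and 37.6 CPM alone and 20.5, 43.4 and 46.3 CPM with neurons. It was higher in 6 of the 7 pairs without a doubtful library, with an average log2 difference there of 0.36 (SE 0.15, edgeR adjusted p = 1). Pygb, which releases glucose from glycogen, was at day 2 at 94.1, 442 and 395 CPM alone and 207, 376 and 528 CPM with neurons. At day 4 Pygb was at 129, 419 and 415 CPM alone and 234, 396 and 663 CPM with neurons. At day 7 Pygb was at 182, 255 and 514 CPM alone and 115, 382 and 612 CPM with neurons. Replicate 3 was above its control at all 3 days, and the lowest values in all groups were those of replicate 1. Pygm was at day 2 at 0, 1.77 and 0.449 CPM alone and 0.0277, 1.66 and 0.0793 CPM with neurons. At day 4 Pygm was at 0.703, 1.03 and 1.05 CPM alone and 1.48, 0.717 and 0.0596 CPM with neurons. At day 7 Pygm was at 0.0581, 0.802 and 0.593 CPM alone and 37.7, 0.421 and 0.549 CPM with neurons. The 37.7 CPM (224 reads) of the doubtful library carried its day 7 log2 difference of 4.70 (SE 1.74, edgeR unadjusted p = 0.0145, adjusted p = 0.468), which was −0.07 (SE 1.56, adjusted p = 1) without the 2 doubtful libraries. Gbe1, the branching enzyme, was at day 2 at 20.2, 19.5 and 48.6 CPM alone and 19.7, 14.9 and 36.5 CPM with neurons. At day 4 Gbe1 was at 27.8, 26.7 and 44.5 CPM alone and 42.8, 36.4 and 41.7 CPM with neurons. At day 7 Gbe1 was at 55.7, 38.6 and 52.9 CPM alone and 33.8, 35.6 and 65.3 CPM with neurons. It was lower in 3 of 3 pairs at day 2 and mixed later. In the day 2 pair of replicate 1 the control value of 20.2 CPM is the floor of that doubtful library (3 reads).

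Time in culture gave no call among the 34 genes either (edgeR's quasi-likelihood test, adjusted p under 0.05). Of all tested genes 0% were called in each of the 6 comparisons of days. The values here use all 18 libraries, with a doubtful one at day 2 alone and another at day 7 with neurons. At an unadjusted p under 0.05 stood Aldoa from day 2 to 4 alone (−0.74, SE 0.33), Slc2a1 from day 2 to 4 with neurons (0.88, SE 0.39), Pdk4 and Pygm from day 4 to 7 with neurons, and Eno1, Pdk4, Pygm and Gbe1 from day 2 to 7 with neurons. At that level stood 0.732%, 2.17%, 10.2% and 13.2% of all tested genes in these 4 comparisons, and the values of Pdk4 and Pygm came with the outlying ones of the doubtful library. Alone, 0 of 34 stood there from day 4 to 7 (0.169% of all tested genes) and from day 2 to 7 (1.11%). By direction, 14, 17 and 16 of 34 were fitted higher alone from day 2 to 4 (56.2% of all tested genes), from day 4 to 7 (44.4%) and from day 2 to 7 (51%). With neurons the counts were 17 (49.8%), 15 (50%) and 18 (51.2%). In astrocytes alone, groups did not overlap for Aldoa and Mpc2, lower at day 4 than at day 2 (2.06% of all tested genes, with 4.79% and none of the 34 higher), and for Pfkfb3, higher at day 7 than at day 4 (2.86%, with 3.62% and none lower). From day 2 to 7 alone they did not overlap for Pdk2 and Mpc2, lower (2.58%, with 4.66% and none higher). With neurons they did not overlap for Hk1, lower at day 4 than at day 2 (3.07%, with 3.73% and none higher), for Gpi1, higher (3.59%), and Gapdh, lower (4.4%), at day 7 than at day 4, for Mpc2, higher at day 7 than at day 2 (4.92%), and for Gapdh, Eno1 and Gys1, lower (5.42%). The co-culture difference itself did not pass edgeR's test between any 2 days for any of the 34 genes, and at an unadjusted p under 0.05 stood Pygm alone, in day 7 minus day 4 (3.07% of all tested genes) and in day 7 minus day 2 (5.47%), with 0 of 34 in day 4 minus day 2 (1.06%). It was fitted higher at the later day for 21 of 34 genes from day 2 to 4 (46.7%), 12 from day 4 to 7 (53.6%) and 20 from day 2 to 7 (51.9%).

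Calls among the 34 genes came from a comparison of dates. It was added after the data were seen: replicate 3 against replicate 1, in edgeR's quasi-likelihood model with the 6 groups, the replicate numbers and the library set as terms. Each replicate number is a single date, so these p-values cover the spread among libraries within dates and not the spread between dates. Higher in replicate 3 were 5 of 34 genes (0.744% of all tested genes): Ppp1r3c by 4.15 on the log2 scale (SE 0.53, edgeR adjusted p = 0.000743), Aldoc by 3.37 (SE 0.44, adjusted p = 0.000826), Pygb by 1.65 (SE 0.27, adjusted p = 0.0042), Pfkm by 1.10 (SE 0.25, adjusted p = 0.0385) and Pfkp by 0.98 (SE 0.24, adjusted p = 0.0484). Lower was Eno1 (0.593%), at −1.62 (SE 0.32, edgeR adjusted p = 0.0176), about which the shared sequence above applies. Aldoc ran from 158 to 304 CPM in the 6 libraries of replicate 3, from 33.2 to 67.1 CPM in replicate 2 and from 6.72 to 66.2 CPM in replicate 1. Ppp1r3c ran from 25.2 to 34.1 CPM in replicate 3, from 4.82 to 10.1 CPM in replicate 2 and from 0 to 4.53 CPM in replicate 1. Both genes kept replicate 3 apart from the others whether neurons were present or not. As a share of Aldoa and Aldoc per length, Aldoc held 29.5% to 58.1% in replicate 3, 6.26% to 21.6% in replicate 2 and 4.32% to 25.4% in the 4 libraries of replicate 1 without the doubtful ones. Aldoc, Pygb and Ppp1r3c were called in all 16 other settings run, which left out single libraries, both doubtful ones or the set term or changed the scaling. Without the 2 doubtful libraries Pdk1 was called in addition, giving 6 genes higher (1.93%) and 1 lower (1.94%). Only Aldoc, Pygb and Ppp1r3c were called without any 1 of 6 libraries, namely replicate 1 with neurons at day 2 or of either kind at day 4, or replicate 3 of the same 3 groups. Without replicate 1 alone at day 7, 6 genes were called, with Pfkfb3 and Slc16a1 in place of Pfkm and Pfkp. Astrocyte markers summed to 3850 to 5314 CPM in replicate 3, 1789 to 2385 CPM in replicate 2 and 504 to 1901 CPM in replicate 1, and their part in the result was not tested.

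**Figure D5:**
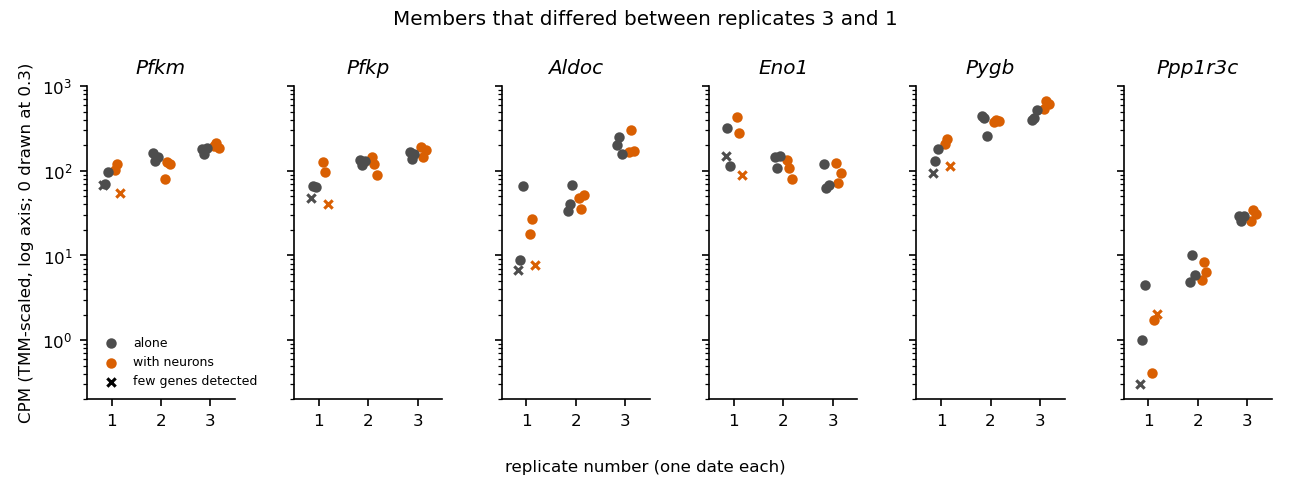
CPM (TMM-scaled, log axis; 0 drawn at 0.3) of the 6 genes that differed between replicates 3 and 1, by replicate number, for astrocytes alone (grey) and with neurons (orange); crosses are the 2 doubtful libraries. Aldoc and Ppp1r3c stand at 158 CPM or above and 25.2 CPM or above in replicate 3, and at 67.1 CPM and 10.1 CPM or below elsewhere.

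Neighbouring pathways were read from lists chosen by function, with edgeR's quasi-likelihood test and adjustment over all tested genes, and none of their genes was called. Of the pentose phosphate pathway, which branches from glucose 6-phosphate and yields NADPH, 7 of 8 listed genes were tested, and 4, 6 and 7 of the 7 were fitted higher with neurons at days 2, 4 and 7 (medians 0.16, 0.31 and 0.58). The genes of it with the smallest p at day 7 were Taldo1, at 0.95 (SE 0.37, edgeR unadjusted p = 0.0192, adjusted p = 0.468), and Rpe, at 1.16 (SE 0.52, unadjusted p = 0.0377, adjusted p = 0.509). Rpe stood at day 7 at 44.1, 37.0 and 20.8 CPM alone and 162.9, 40.6 and 24.4 CPM with neurons, the highest value being that of the doubtful library. Without the 2 doubtful libraries Rpe was at −0.09 (SE 0.34, edgeR adjusted p = 1) and Taldo1 at 0.62 (SE 0.38, adjusted p = 1) at day 7. The pathway then had 3, 6 and 5 of 7 genes fitted higher at days 2, 4 and 7, with medians of −0.03, 0.30 and 0.54. Of 20 tested genes of other glycolysis and lactate roles, 10, 9 and 8 were fitted higher at days 2, 4 and 7, with medians of −0.05, −0.25 and −0.26. Of 20 tested genes of other glycogen roles, 14, 9 and 7 were higher, with medians of 0.17, −0.05 and −0.31. Of 10 genes of other pyruvate roles, 6, 7 and 5 were higher, with medians of 0.16, 0.29 and −0.06. Of 18 tested regulators and hypoxia targets, 6, 7 and 10 were higher, with medians of −0.05, −0.08 and 0.28. The genes of that list with the smallest p at day 7 went opposite ways. Epas1 was lower, at −1.03 (SE 0.49, edgeR unadjusted p = 0.0488, adjusted p = 0.533). Hif1a, a hypoxia-inducible factor, was higher, at 0.65 (SE 0.37, edgeR unadjusted p = 0.0968, adjusted p = 0.602). Without the doubtful libraries the medians at day 7 were −0.10 for other glycolysis and lactate roles, −0.09 for other glycogen roles, 0.06 for other pyruvate roles and 0.12 for regulators and hypoxia targets, and no gene of these lists was called.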

How the data were processed

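RNA of 18 libraries was sequenced, and the authors deposited whole-number counts of reads for each gene. The submitters' processing notes name Subread, featureCounts and the build mm9. Their versions and the strand setting were not stated in what was used here, so reads of overlapping, antisense or near-identical genes cannot be told apart. Another 17 columns, of correlations between libraries, were not used. Groups came from sample titles. Of 26301 Entrez IDs, 24191 matched a RefSeq symbol (GRCm38.p6, used for names and promoters only). The members and gene lists were chosen with earlier results of these data known.

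Tests were edgeR 4.0.16 quasi-likelihood F tests in R 4.3.3 on a model of 6 group means over all libraries, with TMM scaling, filterByExpr, and calls at a Benjamini-Hochberg adjusted p under 0.05. Pair differences used log2(CPM + 0.5). Every library's value is printed for Slc2a1, Ldha, Ldhb and Pygb and, in each step, for the genes with the smallest unadjusted p (2 in the average co-culture contrast, 1 each in day 7 against day 2 alone and with neurons). Other values are given where a count or comparison singled a gene out, after values were seen. Lengths and 50-base words came from GENCODE transcripts of GRCm38. Depth was 3242459 to 32623556 reads, and the median biological coefficient of variation 0.569. Per the labels, a replicate number stands for a single date. Deviations of same-numbered libraries from group means correlated at 0.138 to 0.519 within a day, against −0.422 to 0.0923 for different numbers. Deviations from a group mean sum to 0, which by itself lowers the correlations of different numbers. Pairs were formed by number and day, and the part of the library set in these correlations was not tested. No 2 libraries of a group matched within sampling noise (lowest chi-square per degree of freedom 109). Alternatives were DESeq2 1.42.0, limma-voom (limma 3.58.1), other scalings and filters, the replicate block and left-out libraries. The procedure was also run on simulated counts. These held no date effects and no library set, so the run cannot show how the procedure does where such effects are present.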

Additional observations from a re-analysis of the deposited data

Results flagged for a closer look

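The 4 results below stood out because all 3 pairs went 1 way at a day and all 3 the other way at another day. The co-culture difference of Aldoa was 0.58 higher on the log2 scale at day 4 than at day 2, where it was lower in 3 of 3 pairs at day 2 and higher in 3 of 3 at day 4, and edgeR's test of the difference between days did not pass (adjusted p = 1). Between day 7 and day 2 the difference for Aldoa was 0.88 (edgeR adjusted p = 0.892), and without the 2 doubtful libraries 1.04 (edgeR adjusted p = 1). For the pyruvate carrier subunit Mpc2 it was 1.2 between day 7 and day 2 (edgeR adjusted p = 0.919), with the doubtful control library of day 2 at 33.6 CPM near its floor of 20.2 CPM, and 0.72 without the doubtful libraries (edgeR adjusted p = 1). The log2 ratio of Aldoc to Aldoa was higher with neurons in 3 of 3 pairs at day 2 and lower in 3 of 3 at day 7, a change of −2.34 in the mean, and this difference was not tested. Without the pair of each of those days that holds a doubtful library the change was −1.27, over 2 pairs a day.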

How the results depend on the processing

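No alternative called any of the 34 genes in a co-culture, time or between-day comparison. Of 2931 values of the genes printed in every library, 245 changed sign and 97 moved by over 1 SE, and 0 were called; a change of sign in a difference that no fit called is given as this count only. With the replicate block, which uses the pairing by date, 0 of the 34 were called and 19, 27, 22 and 22 were fitted higher at days 2, 4, 7 and on average. The count fitted higher at day 4 stayed between 21 and 28 over all alternatives. At day 2 it was 12 without the 2 doubtful libraries and with the block, 10 with the library set as a further term, and 10 to 23 when libraries or replicates were left out. At day 7 it was 14 to 26 when they were left out (14 without replicate 2), and on average 18 to 31. By pairs at day 7, upper-quartile scaling gave 5 genes higher and 5 lower in 3 of 3, and median-ratio scaling 9 higher and 1 lower. At day 4 upper-quartile scaling gave 2 lower. Among the ratios, Ldhb to Ldha (mean 0.08) went to −0.0014 without the 2 doubtful pairs and ranged from −0.0597 to 0.229 when a replicate was left out. Aldoc to Aldoa (−0.12) went to 0.17 without the doubtful pairs, and Pygm to Pygb (−0.76) ranged from −1.51 to 0.0678. Hk2 to Hk1 (−0.27) went to −0.55 without the doubtful pairs, lower in 6 of 7 (exact sign-flip p = 0.03125, adjusted p = 0.156). Slc16a3 to Slc16a1 (−1.37) went to −1.74 there, also lower in 6 of 7 (exact sign-flip p = 0.0469, adjusted p = 0.156). Both had a smaller p there than Pfkm to Pfkl (exact sign-flip p = 0.0781). No ratio passed after adjustment, and these tests also take pairs of the same date as independent. The comparison of replicates 3 and 1 called 3 to 6 of the 34 when a library was left out. The cause of these changes was not tested.

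In the smallest library a level under 20.2 CPM rests on fewer than 3 reads.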
